A study of Mus musculus with 6 samples.

Results

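The genes described here are 33 genes of the cellular response to low oxygen, measured in mouse bone marrow stromal cells grown with or without an inhibitor of the kinase MEK. They comprise subunits of hypoxia-inducible factor (HIF), the enzymes that sense oxygen for it, and genes that it is known to switch on outside glycolysis, among them the adenylate kinase gene Ak4. A probe set, the group of short probes that measures a transcript on the array, was taken as a member if the symbol listed for it was exactly 1 of the 33. This gave 38 of 28853 probe sets, and all 33 genes were measured, of 19938 genes named on the array. Of the genes, 5 have several probe sets, and the brightest of them over the 6 arrays stood for the gene.

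MS5 cells are a stromal cell line from mouse bone marrow that is used as a feeder layer for blood cells. In MEKi cultures they were kept for 7 days with 1 μM PD184352, a small molecule that blocks MEK and so the phosphorylation of the kinase ERK. In diluent cultures they were kept for the same time with DMSO, the solvent of the drug. There were 3 independent experiments, called series 1, 2 and 3 in the labels, each with 1 MEKi and 1 diluent culture and 1 array for each, so that 6 arrays were compared, 3 per condition. The cells are 1 line in monoculture, and the sources name no low-oxygen treatment and give no oxygen level for the cultures.

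HIF is a transcription factor of an oxygen-labile alpha subunit (encoded by Hif1a or Epas1) and a stable partner (Arnt). In the presence of oxygen, prolyl hydroxylases (Egln1 to Egln3) mark the alpha subunit for binding by the VHL protein and for degradation, and the asparaginyl hydroxylase encoded by Hif1an weakens what is left. When oxygen falls the alpha subunit accumulates and binds short DNA elements near its target genes, which shift metabolism away from respiration, remodel mitochondria, build vessels and stiffen the matrix. The alpha subunit is controlled mainly as a protein, so its mRNA need not follow its activity, while growth factor signalling through ERK and PI3 kinase is also known to affect it. In bone marrow stroma this system is known for its part in the low-oxygen niche of blood stem cells.

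Values are log2 intensities from the robust multichip algorithm (RMA) as deposited, so that a difference of 1 is a 2-fold difference. They ran from 2.25 to 14.07, and the array medians lay between 6.29 and 6.38. The conditions were compared with limma, which fits a linear model per probe set and shares variance between them, and each series was entered as a block. Benjamini-Hochberg adjustment covered every probe set of the array, and an adjusted p under 0.05 counted as passing. Of all probe sets 46 passed (0.159%), 16 lower (0.0555%) and 30 higher (0.104%). Of 16 known outputs of the ERK pathway 15 had negative differences and 2 fell, Ccnd1 (cyclin D1) by 1.32 and Fosl1 (an AP-1 factor) by 0.81. Of 10 stromal markers 8 lay above the median of all probe sets. None of 4 endothelial markers and 1 of 3 epithelial markers did, and of 4 leukocyte markers only Cd68 did. In bulk RNA, fewer cells of a type and less RNA per cell cannot be told apart.

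Of the 33 genes 1 passed, Ak4, and it did so through 1 of its 2 probe sets, which was lower with MEKi. The Ak4 protein is an adenylate kinase of the mitochondrial matrix that moves phosphate between nucleotides, and the gene is a known HIF target. The probe set that passed was at 0.569 of its diluent level with MEKi. It was lower by at least 1.5-fold in each of the 3 series, which no other member was. Its number on the array places it among genes of chromosome 2, whereas Ak4 lies on chromosome 4. The second probe set did not pass, so the fall is uncertain as a fall of Ak4 itself. The other 32 genes did not pass, although 29 of the 33 had negative differences. Of all probe sets, 36% had negative differences. The median difference of the 33 genes was −0.28 on the log2 scale, against 0.037 over all probe sets.

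In detail, Ak4 read 6.66, 5.76 and 7.52 with MEKi in series 1, 2 and 3, against 7.61, 6.38 and 8.39 with diluent. The MEKi culture lay below the diluent culture of its own series each time, with differences of −0.94, −0.63 and −0.87. The conditions as a whole overlapped, since the diluent culture of series 2 lay below the MEKi cultures of series 1 and 3. The log2 difference was −0.81 (standard error 0.088, 95% confidence interval −1.02 to −0.61, n = 3 series, adjusted p = 0.0367 from limma). A second probe set that also names Ak4 read 6.24, 6.01 and 6.51 with MEKi, against 6.65, 6.25 and 6.54 with diluent. Its difference was −0.22 (standard error 0.093, adjusted p = 0.493 from limma), with the same sign in every series and a far smaller size, and both are listed under the same RefSeq transcripts. Which of them reads the Ak4 locus is not settled by the files, which give no probe positions. Probe set numbers on this array mostly follow the chromosomes, and 34 of the 38 member probe sets were numbered among genes of their own chromosome. For the probe set that passed, 38 of the 40 nearest named neighbours lay on chromosome 2, whereas for the second 39 of 40 lay on chromosome 4, which holds Ak4. Whether the first reads a near-identical copy of Ak4 elsewhere was not tested, so the fall is uncertain as a fall of Ak4 itself, and with the second probe set no member passed. The call was lost with the series as a random block (adjusted p = 0.635 from limma) or with no block (1), with arrays centred on their medians (0.0523), without series 1 (0.106), series 2 (0.131) or series 3 (0.0559), and for the mean of both probe sets (0.0534). None of 5 other adenylate kinases passed in limma, and 0 had an unadjusted p under 0.05. Ak3, a mitochondrial relative, had a difference of 0.13 (adjusted p = 0.625 from limma).

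**Figure D1:**
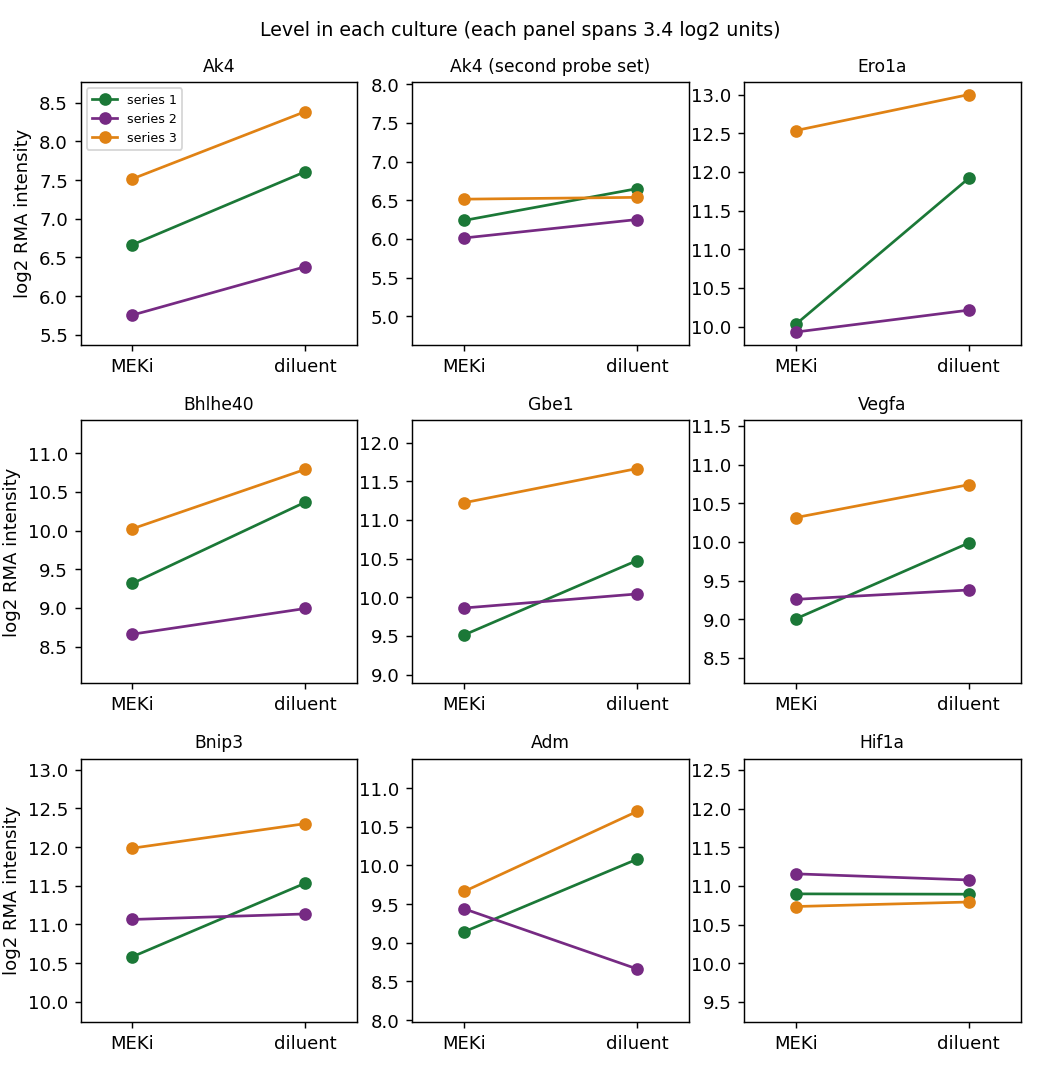
Log2 RMA intensity (y axis) in MEKi and diluent cultures (x axis) for 8 members, with both probe sets of Ak4, and with lines that join the cultures of a series. The lines of the brighter Ak4 probe set run nearly in parallel, with differences of −0.94 to −0.63, while those of Adm cross and those of Hif1a are flat.

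Among all probe sets such a fall was uncommon. A difference of at least 1.5-fold downwards in every series was found for 18 of 28853 probe sets (0.0624%), and for 1 member, Ak4, by its brighter probe set. Differences were negative in all 3 series for 10 of the 33 genes, against 7.98% of all probe sets, and positive in all 3 for 2 genes, against 23.9%. None of the 38 member probe sets had conditions that did not overlap, against 2.17% of all probe sets without overlap on the lower side and 5.69% on the higher side. At an unadjusted limma p of at most 0.05 with a 1.5-fold difference, Ak4, Ero1a and Bhlhe40 were lower (0.277% of all probe sets) and no member was higher (0.26%). At an unadjusted p under 0.05 from limma, 10 of the 33 genes had negative differences (2.31% of all probe sets) and 2 had positive ones (7.58%). These were Ak4, Bhlhe40, Gbe1, Vegfa, Ero1a, Kdm3a, Ddit4, Fam162a, Bnip3 and Epas1 on the lower side, and Stc1 and Ppp1r3c on the higher side.

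The differences were unequal between series. In series 1, 29 of the 33 genes were lower with MEKi and 16 were lower by at least 1.5-fold, against 1.09% of all probe sets. In series 3, 30 were lower and 6 were lower by 1.5-fold, against 0.537%. In series 2 only 10 were lower and 1, Ak4, by 1.5-fold, against 0.374%. Upwards by 1.5-fold there were 0, 1 (Adm) and 1 (Ppp1r3c) of the members in series 1, 2 and 3, against 0.509%, 0.929% and 1.02% of all probe sets. The medians of the members were −0.40, 0.13 and −0.38 in series 1, 2 and 3, beside −0.003, 0.10 and 0.014 over all probe sets. Thus in series 2 the members lay close to the array as a whole. Each series holds 1 array per condition, so the difference between series was not tested.

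**Figure D2:**
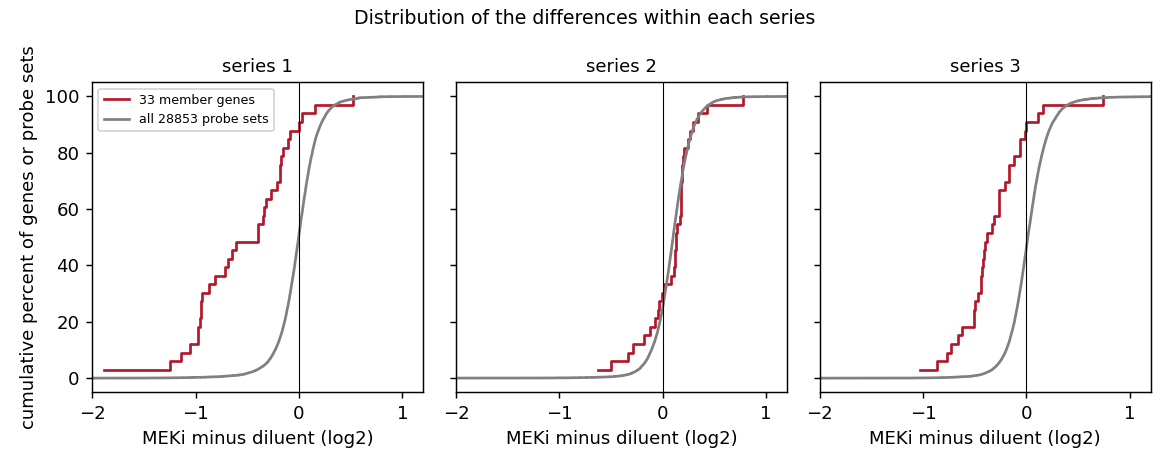
Cumulative percent (y axis) of the MEKi minus diluent differences on the log2 scale (x axis, drawn from −2 to 1.2) within series 1, 2 and 3, for the 33 member genes (red) and all probe sets (grey). The red curve lies left of the grey in series 1 and 3, with medians of −0.40 and −0.38, and near it in series 2, with a median of 0.13.

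The cultures also differed without the drug. Among diluent cultures, 21 of the 33 genes had the order series 3, then 1, then 2, which 14.9% of all probe sets had. In 17 genes the highest and the lowest diluent culture were more than 2-fold apart (2.71% of all probe sets). The median range over diluent cultures was 1.13 on the log2 scale for the members, beside 0.22 over all probe sets. It was wider than the MEKi difference in 31 of the 33 genes and in 25168 of the 28853 probe sets, so that this held for most of the array. The members were also brighter, with a median level of 9.59 against 6.32 over all probe sets. The shares of all probe sets given here and above were not matched for brightness. With MEKi, series 3 was again the highest in 23 genes (69.7%, against 22.4% of all probe sets), and series 1 was the lowest in 20 (60.6%, against 51.1%). The series with the lowest diluent levels, series 2, was the one whose median difference lay nearest to 0, and 3 series allow no test of that relation.

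The HIF regulators and the other members had unlike medians here. For the 8 genes of the HIF subunits, oxygen sensors and VHL, the median range over diluent cultures was 0.32, and for the other 25 genes it was 1.26. The median difference of the 8 was −0.050 and that of the 25 was −0.36. Relative to each gene's own mean, the median of the 25 was −0.43, −0.36 and 0.33 in the MEKi cultures of series 1, 2 and 3, and 0.11, −0.41 and 0.83 in the diluent cultures. Cd68, a macrophage lysosomal protein, read 9.69, 8.96 and 10.67 with MEKi, against 10.62, 9.10 and 11.41 with diluent, with series 3 the highest and series 2 the lowest in both. The leukocyte markers summed to between 618.4 and 1744 on the linear scale with MEKi and between 664.5 and 2836 with diluent, most of it from Cd68. The defining markers Ptprc and Adgre1 were at or below 5.06 and 4.26 on every array with MEKi and 5.01 and 4.23 with diluent, in the dimmest 25.3% and 14.2% of probe sets. Whether the Cd68 signal came from the stromal cells themselves or from other cells was not tested, nor was its relation to the members.

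**Figure D3:**
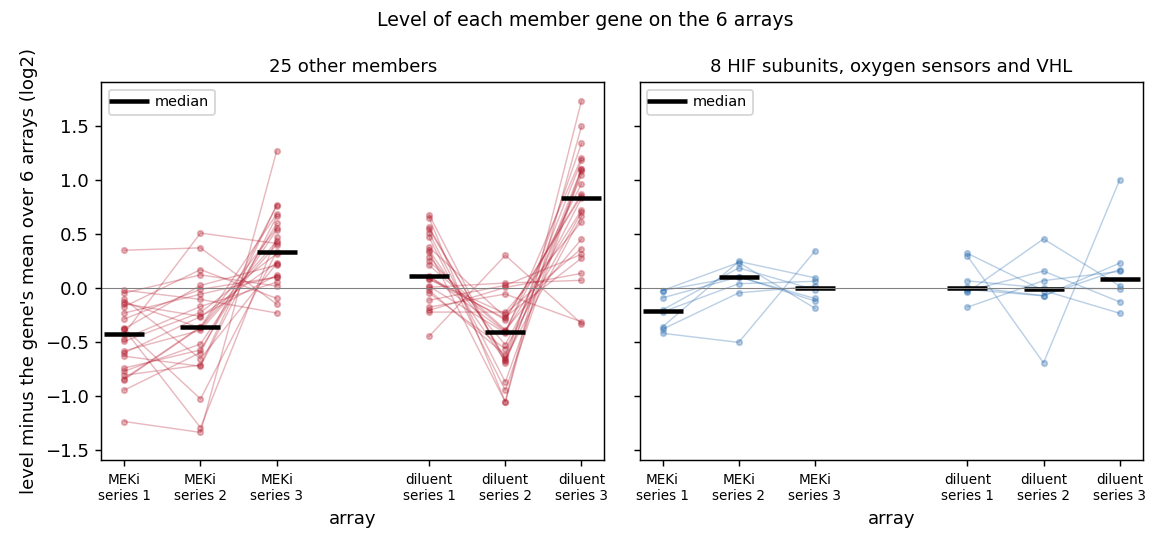
Level of each member on each array minus the gene's own mean over the 6 arrays (y axis, log2 scale), for the 25 other members (left) and the 8 HIF subunits, oxygen sensors and VHL (right); thin lines follow a gene within a condition and thick bars are medians. On the left the median runs from −0.43 to 0.33 with MEKi and from −0.41 to 0.83 with diluent, while on the right it stays between −0.22 and 0.10.

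The upstream sequence of the members was searched for the core of the HIF-binding element. The motifs were ACGTG and GCGTG, on both strands, in the 250 bases before each annotated start site in the RefSeq promoter table of GRCm38.p6. ACGTG and its complement CACGT overlap where the letters read CACGTG. Of the 33 genes 26 had a promoter in the table, with 36 promoters in all, of which 28 held a match (77.8%), against 38.6% of all 32851 promoters. The members' promoters were richer in G and C (median 61.8%, against 52.4% for all), and among the 8361 promoters whose GC share lay between 57.5% and 70%, the quartiles of the members, 59.3% held a match. This last share covers only promoters in that GC range, whereas the 77.8% covers every member promoter. Windows of 1 gene can overlap, as some of Ak4 do, and each was counted. The members were listed as HIF regulators and known HIF targets, so their share of matches says nothing about these arrays. A match is a description of the letters and no evidence of binding. In all 6 sequences are shown, 5′ to 3′ on the strand of the gene, with matches in capitals: both ends of the start sites of Ak4, the gene with the call, Ero1a and Bnip3, which had large negative differences in series 1, Gbe1, which had one too but holds no match, and Hif1a, which holds matches and had a difference near 0.
Ak4, first start site, GRCm38.p6 chr4:101419039-101419288, + strand: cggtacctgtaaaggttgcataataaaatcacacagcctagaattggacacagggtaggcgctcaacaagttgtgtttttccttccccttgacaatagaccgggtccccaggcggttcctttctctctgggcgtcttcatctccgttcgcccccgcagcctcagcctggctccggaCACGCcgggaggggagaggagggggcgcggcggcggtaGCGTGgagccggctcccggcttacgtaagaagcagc
Ak4, last start site, GRCm38.p6 chr4:101419453-101419702, + strand: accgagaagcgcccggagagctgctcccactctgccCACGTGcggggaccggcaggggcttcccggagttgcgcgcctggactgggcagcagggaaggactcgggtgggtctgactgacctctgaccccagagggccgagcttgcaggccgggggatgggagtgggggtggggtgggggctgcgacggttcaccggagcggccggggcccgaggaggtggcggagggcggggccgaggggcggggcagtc
Ero1a, GRCm38.p6 chr14:45318573-45318822, − strand: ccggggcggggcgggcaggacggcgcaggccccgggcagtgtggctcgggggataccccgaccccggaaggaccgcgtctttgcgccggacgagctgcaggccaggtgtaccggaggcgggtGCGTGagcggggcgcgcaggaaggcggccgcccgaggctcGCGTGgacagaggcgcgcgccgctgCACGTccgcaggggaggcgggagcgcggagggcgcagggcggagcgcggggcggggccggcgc
Bnip3, GRCm38.p6 chr7:138909507-138909756, − strand: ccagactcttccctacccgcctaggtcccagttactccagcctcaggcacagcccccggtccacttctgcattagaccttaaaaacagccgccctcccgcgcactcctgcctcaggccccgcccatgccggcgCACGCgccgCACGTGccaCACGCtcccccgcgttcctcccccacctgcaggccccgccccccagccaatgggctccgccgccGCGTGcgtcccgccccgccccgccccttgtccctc
Gbe1, GRCm38.p6 chr16:70313699-70313948, + strand: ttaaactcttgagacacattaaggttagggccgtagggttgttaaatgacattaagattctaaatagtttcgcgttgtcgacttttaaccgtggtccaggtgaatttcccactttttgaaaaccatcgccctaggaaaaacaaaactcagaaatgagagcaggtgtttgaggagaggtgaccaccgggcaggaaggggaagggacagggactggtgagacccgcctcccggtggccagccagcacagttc
Hif1a, GRCm38.p6 chr12:73907617-73907866, + strand: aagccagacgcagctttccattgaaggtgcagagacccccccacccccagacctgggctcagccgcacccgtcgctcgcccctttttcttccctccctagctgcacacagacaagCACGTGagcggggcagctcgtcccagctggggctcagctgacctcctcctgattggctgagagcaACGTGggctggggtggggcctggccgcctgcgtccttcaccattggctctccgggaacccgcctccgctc
Of these 6 windows, that of Gbe1 holds no match. The last Ak4 window holds CACGTG, as do those of Bnip3 and Hif1a, a hexamer in 6.02% of all promoters. The brighter probe sets of Ak4 and Bnip3 are numbered among genes of other chromosomes. The Ak4 and Bnip3 windows may therefore not belong to the loci that those probe sets read.

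Of the HIF subunits, Hif1a and Arnt differed little. Hif1a, the main oxygen-labile subunit, read 10.90, 11.16 and 10.73 with MEKi, against 10.89, 11.08 and 10.79 with diluent, a log2 difference of 0.008 (95% confidence interval −0.17 to 0.18, n = 3 series). The interval reaches no further than 0.18 on the log2 scale either way. Arnt, the stable partner, read 10.74, 10.94 and 10.74 with MEKi, against 10.85, 10.77 and 11.01 with diluent, with a difference of −0.066. Epas1, which encodes the other alpha subunit HIF-2α, read 8.77, 9.10 and 9.17 with MEKi, against 9.11, 9.60 and 9.17 with diluent. Its difference was −0.28 (standard error 0.11, 95% confidence interval −0.53 to −0.032, adjusted p = 0.451 from limma). That difference came from series 1 and 2, and Epas1 was the only one of the 3 subunits lower in series 2. Its order over diluent cultures, with series 2 the highest, was also unlike that of most members.

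Of the oxygen sensors, Egln1 stood apart from the rest. Egln1, the main prolyl hydroxylase of HIF and itself a known HIF target, read 9.35, 9.27 and 10.11 with MEKi, against 10.07, 9.08 and 10.77 with diluent. The differences were −0.72 and −0.66 in series 1 and 3 and 0.19 in series 2 (log2 difference −0.40, standard error 0.17, adjusted p = 0.514 from limma). Egln2, another of the HIF prolyl hydroxylases, read 9.39, 9.52 and 9.29 with MEKi, against 9.73, 9.39 and 9.18 with diluent. Egln2 had a difference of −0.034 and Egln3, the remaining one, of −0.021, and for neither did the sign hold over the series. Vhl, which encodes the recognition subunit of the ubiquitin ligase, read 8.85, 9.11 and 9.14 with MEKi, against 9.06, 9.0 and 9.30 with diluent. Hif1an, the asparaginyl hydroxylase, read 7.81, 8.2 and 8.0 with MEKi, against 8.08, 8.01 and 8.01 with diluent. The differences of Vhl (−0.088) and Hif1an (−0.031) were smaller than their standard errors of 0.089 and 0.10.

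**Figure D4:**
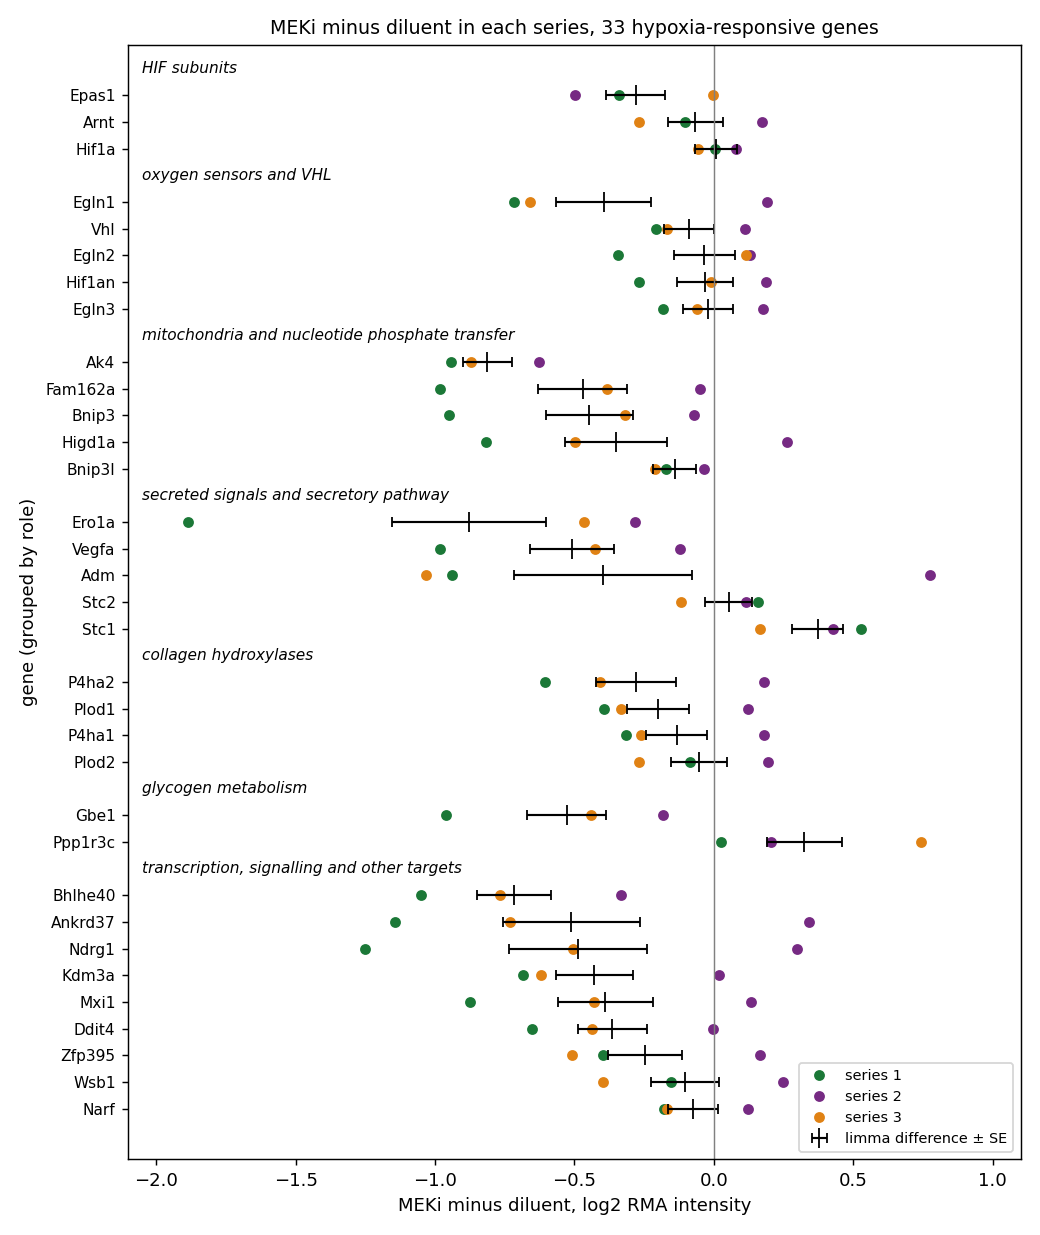
Difference between MEKi and diluent cultures (x axis, log2 units) for each of the 33 genes (y axis), grouped by role. Coloured points are series 1, 2 and 3, and the black bar is the limma difference ± standard error. The points of Ak4 lie between −0.94 and −0.63, whereas in most other targets series 2 (purple) lies at or above 0 and series 1 (green) at the low end.

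Of the 5 mitochondrial members, 4 were lower in every series by their brighter probe sets. Bnip3, a receptor for the removal of mitochondria by autophagy, read 10.58, 11.06 and 11.99 with MEKi, against 11.53, 11.13 and 12.30 with diluent. Its difference was −0.45 (standard error 0.16, adjusted p = 0.413 from limma), of which series 1 gave −0.95 and series 2 only −0.071, and a second probe set gave −0.44. As for Ak4, the brighter Bnip3 probe set was not numbered among genes of its own chromosome and the second was, and the same held for Bnip3l. Fam162a, a mitochondrial protein known as a HIF target, read 9.09, 9.0 and 10.38 with MEKi, against 10.07, 9.04 and 10.77 with diluent, a difference of −0.47. Like Bnip3, it differed mainly in series 1. Higd1a, which associates with the respiratory chain, read 7.09, 7.57 and 8.61 with MEKi, against 7.91, 7.31 and 9.11 with diluent, a difference of −0.35. Series 2 had the opposite sign, and its second probe set, numbered among genes of another chromosome, gave −0.49. Bnip3l, the paralogue of Bnip3, had a difference of −0.14, with series values of −0.17, −0.036 and −0.21, and its second probe set gave −0.11, with 0.038 in series 2.

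Among secreted and secretory members the signs were mixed. Ero1a, the oxidase that reforms disulphide bonds in the endoplasmic reticulum, had the largest negative difference of the 33 genes and the widest range over cultures within each condition. It read 10.03, 9.93 and 12.53 with MEKi, against 11.92, 10.21 and 13.00 with diluent. The differences were −1.89, −0.28 and −0.46 in series 1, 2 and 3 (log2 difference −0.88, standard error 0.28, adjusted p = 0.378 from limma). The low value of series 1 with MEKi lay close to both cultures of series 2.

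Vegfa, the vascular growth factor, read 9.01, 9.26 and 10.31 with MEKi, against 9.99, 9.38 and 10.74 with diluent, with a difference of −0.51 (standard error 0.15, adjusted p = 0.352 from limma). Adm, which encodes the vasodilator peptide adrenomedullin, read 9.14, 9.44 and 9.66 with MEKi, against 10.08, 8.66 and 10.70 with diluent. Adm was the member whose series disagreed most: its differences were −0.94 and −1.03 in series 1 and 3 and 0.78 in series 2. Its MEKi cultures spanned 0.52 and its diluent cultures 2.04. Stc1, a secreted glycoprotein named stanniocalcin, read 6.50, 6.52 and 6.0 with MEKi, against 5.97, 6.09 and 5.84 with diluent. Stc1 had the largest positive difference of the 33 genes, 0.37 (standard error 0.092, adjusted p = 0.262 from limma), with a higher MEKi culture in every series. Its paralogue Stc2 had a difference of 0.053. Stc1 and Stc2 both lay below the median level of all probe sets, at the 47.7 and 37.1 percentiles.

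The 4 collagen hydroxylases shared 1 pattern, lower in series 1 and 3 and higher in series 2. P4ha2, a prolyl hydroxylase subunit that stabilizes the collagen helix, read 8.42, 8.69 and 9.23 with MEKi, against 9.02, 8.51 and 9.64 with diluent, a difference of −0.28 (adjusted p = 0.588 from limma). P4ha1, the other such subunit, read 10.79, 10.97 and 11.13 with MEKi, against 11.11, 10.79 and 11.39 with diluent, a difference of −0.13. In both, the diluent culture of series 3 was the highest and that of series 2 the lowest. Plod1, a lysyl hydroxylase that prepares collagen for cross-linking, read 10.94, 10.82 and 11.20 with MEKi, against 11.33, 10.70 and 11.53 with diluent, a difference of −0.20. Plod2, a related lysyl hydroxylase, read 10.48, 10.24 and 11.04 with MEKi, against 10.57, 10.05 and 11.31 with diluent. Plod2 had a difference of −0.053, although its diluent cultures were 1.26 apart. Of 10 other genes of collagen processing none passed in limma (3 higher at an unadjusted p under 0.05), 1 had a negative and 9 a positive difference. P4ha3, the third prolyl hydroxylase subunit of this kind, read 9.41, 8.56 and 8.47 with MEKi, against 8.94, 8.15 and 8.05 with diluent. It was higher in every series, with a difference of 0.43 (standard error 0.072, adjusted p = 0.133 from limma), and its diluent order, series 1, then 2, then 3, was not that of the members.

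The pair of glycogen genes had opposite signs. Gbe1, the branching enzyme of glycogen synthesis, read 9.51, 9.86 and 11.22 with MEKi, against 10.47, 10.04 and 11.66 with diluent. It was lower in every series, with −0.96, −0.18 and −0.44 (log2 difference −0.53, standard error 0.14, adjusted p = 0.302 from limma). Ppp1r3c, which targets a phosphatase to glycogen, read 4.57, 5.50 and 5.40 with MEKi, against 4.54, 5.29 and 4.66 with diluent. Its difference of 0.32 (adjusted p = 0.492 from limma) rested mainly on series 3, at 0.74. Ppp1r3c was dim, with a mean level at the 27.2 percentile of all probe sets, so its sign is uncertain.

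All 9 transcription, signalling and other targets had negative differences, and none passed in limma (3 at an unadjusted p under 0.05). Bhlhe40, a repressor that also acts in the circadian clock, read 9.32, 8.66 and 10.02 with MEKi, against 10.37, 8.99 and 10.79 with diluent. After Ak4 it came nearest to the threshold, with a difference of −0.72 (standard error 0.13, adjusted p = 0.162 from limma), and it was lower in every series, with −1.05, −0.33 and −0.77. Ankrd37, an ankyrin repeat protein known as a HIF target, read 6.85, 6.95 and 8.43 with MEKi, against 8.0, 6.61 and 9.16 with diluent. Ndrg1, a stress-responsive growth regulator, read 10.51, 10.67 and 11.84 with MEKi, against 11.76, 10.38 and 12.35 with diluent. Both were lower by over 2-fold in series 1 and higher in series 2, and their differences were −0.51 and −0.49.

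Kdm3a, a histone demethylase, read 9.38, 9.72 and 10.22 with MEKi, against 10.07, 9.70 and 10.84 with diluent, so that series 2 showed next to no difference and the others −0.68 and −0.62. Mxi1, which opposes MYC, had a difference of −0.39, and Ddit4, an inhibitor of mTOR signalling, one of −0.36. Ddit4 was 9.37, 8.82 and 9.70 with MEKi, against 10.02, 8.82 and 10.14 with diluent, with a series 2 difference of −0.003. The remaining 3, Zfp395 (−0.25, and −0.21 for its second probe set), Wsb1 (−0.10) and Narf (−0.074), were lower in series 1 and 3 and higher in series 2.

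Related genes outside the 33 were read from lists. The check of probe set numbers against chromosomes was run on the members only, and not on these lists. Of 13 further genes of the HIF machinery, such as the VHL ligase subunits Elob, Eloc, Cul2 and Rbx1, none passed in limma (1 higher at an unadjusted p under 0.05), 10 had positive differences and all lay between −0.038 and 0.18. Of 17 glycolytic HIF targets none passed (7 lower and 1 higher unadjusted) and 13 had negative differences (median −0.17), with 11 in the diluent order 3, 1, 2. The largest was that of Hk2, the hexokinase that starts glycolysis, which read 6.79, 7.55 and 8.97 with MEKi, against 8.61, 8.02 and 9.64 with diluent (log2 difference −0.99, adjusted p = 0.243 from limma). Slc2a1, the glucose transporter GLUT1, read 10.11, 9.98 and 11.91 with MEKi, against 11.80, 10.17 and 12.51 with diluent (log2 difference −0.83, adjusted p = 0.356 from limma). Both were lower in every series and most so in series 1. Pdk1, the kinase that keeps pyruvate from the mitochondria, read 8.39, 7.88 and 9.27 with MEKi, against 9.09, 8.09 and 9.80 with diluent. Its difference was −0.48 (adjusted p = 0.195 from limma), and Pfkfb3, which makes an activator of phosphofructokinase, ran the other way at 0.52 (0.281). Of 30 other HIF targets none passed (6 lower and 4 higher unadjusted), 16 had negative and 14 positive differences (median −0.052).

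The largest differences in that list were of the size seen among the members. Ndufa4l2, a mitochondrial protein known as a HIF target, read 9.69, 6.87 and 10.11 with MEKi, against 11.18, 7.45 and 10.70 with diluent, with a difference of −0.88 (adjusted p = 0.183 from limma). It was lower in every series, though its diluent cultures differed far more, with a range of 3.73. Sap30, a subunit of a histone deacetylase complex, had a difference of −0.65 and Cox4i2, a respiratory chain subunit, one of −0.54. Gys1, glycogen synthase of muscle type, had a difference of −0.41 (adjusted p = 0.384 from limma). Tfrc, the transferrin receptor, had a positive difference of 0.36 (adjusted p = 0.225 from limma), higher in every series, and was named after its values were seen.

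**Figure D5:**
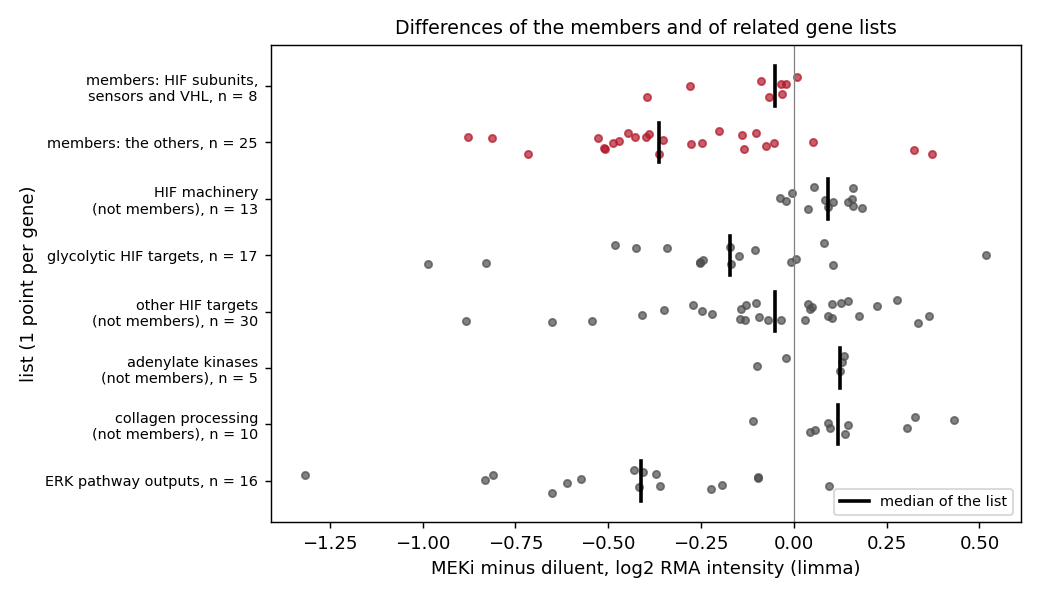
Limma difference between MEKi and diluent (x axis, log2 units) for the members (red) and for related gene lists (grey), with 1 point per gene and a black bar at the median of each list (y axis, vertical scatter only to separate points). The 25 other members have a median of −0.36, the 8 HIF subunits, sensors and VHL one of −0.050, and the further HIF machinery lies between −0.038 and 0.18.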

How the data were processed

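Total RNA of 6 MS5 cultures was hybridized to Affymetrix mouse Gene ST arrays. The authors normalized raw intensities with RMA (background correction, quantile normalization and summary per probe set), ran quality controls in Partek, and deposited log2 values of 28853 probe sets. Versions of both tools and the genome build are not given in the sources used here. The values were used as deposited, and 0 array columns were left out. Precision is limited by the number of arrays. The p-values measure how far the MEKi minus diluent differences varied between the 3 experiments, with variance shared over probe sets. Level differences between experiments are taken out by the block.

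Probe sets were named by a platform table (21789 name 1 gene, 1621 several and 5443 have no symbol listed), and 21698 of the first were found in the RefSeq gene table of GRCm38.p6. The test used limma 3.58.1 (lmFit, eBayes) under R 4.3.3, with a block per series. The numbers pair the arrays: the labels and the methods give 1 culture of each condition per experiment, and deviations from the condition means, taken over the probe sets, had correlations of 0.812, 0.586 and 0.621 within a series and of −0.605 to 0.207 between series. Deviations cancel out over the arrays of a condition, so positive values within a series partly force low values between series. The pairing therefore rests on the labels and the methods. The block left 2 residual degrees of freedom, to which the prior added 5.17. The procedure was run on simulated data with errors drawn independently for each probe set and array. Errors shared over a whole array were not simulated, so the run is no check of the calls against them. Every member was accounted for, and values per culture were given for members past the threshold or 1.5-fold in 1 direction in all 3 series, and for the 4 largest absolute differences in each role group. From each related list up to 4 genes were to be named, by size. The values of Ddit4 per culture were added after they were seen. The members, lists and rules were chosen with earlier results of these data known. Genes listed for comparison that were not matched to a probe set naming 1 gene were not analysed here. Promoters were searched with Python 3.11.15 and figures drawn with matplotlib 3.10.9.

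The alternatives were no block, a random block, a further quantile normalization, centring on array medians, brighter probe sets only, probe sets naming 1 gene only, an intensity trend with robust prior, array weights, each series left out, averaging the probe sets that name a gene, and an unadjusted p of at most 0.05 with 1.5-fold. The second Ak4 probe set, probe sets naming 1 gene for Ak4, the alternatives for the related lists, and the restriction to probe sets numbered among genes of their own chromosome (20 named neighbours on each side) were added after seeing the data.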

Additional observations from a re-analysis of the deposited data

How the results depend on the processing

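The median of the members stayed between −0.45 (without replicate 2) and −0.12 (without replicate 1) and negative throughout; leaving out series 2, at the lower end, or series 1 or 3 (−0.13) moved it by over 1.5 times. It was −0.25 over probe sets numbered among genes of the member's own chromosome. Ak4 kept its direction in every fit. It was past the threshold after a further quantile normalization, among brighter probe sets or those naming 1 gene, with a trend and robust prior, and with array weights (−0.81 to −0.86, adjusted p = 0.00804 to 0.0493 from limma). It was not past it with no replicate block or a random replicate block (−0.81, adjusted p = 1 and 0.635), centred on array medians (−0.84, 0.0523), for the second probe set (−0.22), for the mean of probe sets (−0.52), or without a replicate (−0.91 to −0.75). The cause was not tested. The number of member probe sets past the threshold was accordingly 0 without the block (1 at an unadjusted p under 0.05), with a random block (1), after centring (17) and without replicate 1 (7), 2 (24) or 3 (11), also 0 among the 34 probe sets numbered among genes of their own chromosome (12), and 3 (Ak4, Ero1a and Bhlhe40) at an unadjusted p of at most 0.05 with 1.5-fold.

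Over all probe sets, 0 passed in limma with no replicate block (907 at an unadjusted p under 0.05), a random block (2321) or centring (2780), 15 after quantile normalization (4 higher and 11 lower, against 30 and 16), 25 among brighter ones, 115 with the trend, 155 at the unadjusted threshold with 1.5-fold, and 0 (without replicate 2) to 37 without a replicate. Centring moved the median of all probe sets from 0.037 to 0.004. Of the related lists, 2 genes passed, 0 with no replicate block, a random block or centring, 4 among probe sets naming 1 gene, with the trend or with array weights, and 0 to 2 without a replicate. Of the 32 other members, 24 kept their sign in every fit. Hif1a was at −0.027 after quantile normalization, −0.024 after centring and −0.0061 with array weights. With each replicate left out in turn, signs turned in 8 genes: Hif1a ran from −0.027 to 0.042, Egln2 from −0.12 to 0.12, Egln3 from −0.12 to 0.059, Hif1an from −0.14 to 0.089, Arnt from −0.18 to 0.036, Plod2 from −0.18 to 0.055, Wsb1 from −0.28 to 0.046 and Stc2 from −0.00068 to 0.14. None of these 32 passed under any alternative adjusted over all probe sets.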
